A study of Mus musculus with 2 samples.

Results

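The genes described here are 10 that act as brake or accelerator of the G1 phase: the cyclin-dependent kinase inhibitors Cdkn1a, Cdkn1b, Cdkn1c, Cdkn2a, Cdkn2c and Cdkn2d, the D cyclins Ccnd1 and Ccnd2, their kinase Cdk4, and Trp53. They were taken by symbol from the 31053 genes counted in both single-cell libraries, with no measured value used to choose them, and all 10 had UMIs in both libraries. Islets came from female C57BL/6J mice. The multipara group had been through 3 consecutive pregnancies, starting at 9 weeks of age, and its islets were taken 3 weeks after the last delivery. The virgin group was age-matched. Islets were dispersed to single cells, captured as droplets and read from the 3′ end of each transcript, with unique molecular identifiers (UMIs) marking single RNA molecules. Each condition was 1 library. At least 2 mice a group are stated, without the exact number behind a library, so no difference between virgin and multipara had a replicate check and none was tested. All intervals are exact 95% intervals and cover counting error only.

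In most tissues D cyclins bind Cdk4 or Cdk6, the complex phosphorylates the retinoblastoma protein, and E2F factors then switch on the genes of S phase. The INK4 inhibitors (the products of Cdkn2a, Cdkn2b, Cdkn2c and Cdkn2d) bind Cdk4 and Cdk6 alone, whereas the Cip/Kip inhibitors (Cdkn1a, Cdkn1b and Cdkn1c, or p21, p27 and p57) act on several cyclin-kinase complexes. In mouse islets Ccnd2 and Cdk4 are needed for postnatal beta cell growth, Cdkn2a accumulates in ageing beta cells, and Cdkn1a is a classical target of p53, the product of Trp53.

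Cdkn2a and Cdkn1a each have a pair of RefSeq start sites, and the bases before them are shown. Cdkn2c also has a pair, which is not shown. The gene Cdkn2a (chromosome 4, 89274471 to 89294653, minus strand, GRCm38) makes p19Arf from the distal start and p16Ink4a from the proximal one, 12427 bases apart. In the annotation of the same build its 2 protein-coding transcripts end within 70 bases of each other, so a 3′ count does not tell p16Ink4a from p19Arf. The 250 bases before the distal start (chr4:89294620-89294869, minus strand) held 40 CpG pairs, more than 98.7% of 32851 such RefSeq windows, and those before the proximal start (chr4:89282193-89282442, minus strand) held 7, against a median of 6. Capitals mark the GC box GGGCGG, searched on both strands and present in 32.7% of the windows.
Cdkn2a, before the distal start: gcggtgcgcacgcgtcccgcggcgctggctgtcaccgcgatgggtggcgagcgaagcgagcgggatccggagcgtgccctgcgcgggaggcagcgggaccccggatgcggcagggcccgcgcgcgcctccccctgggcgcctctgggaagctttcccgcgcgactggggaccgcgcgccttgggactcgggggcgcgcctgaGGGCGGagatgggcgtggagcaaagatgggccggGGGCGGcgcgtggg
Cdkn2a, before the proximal start: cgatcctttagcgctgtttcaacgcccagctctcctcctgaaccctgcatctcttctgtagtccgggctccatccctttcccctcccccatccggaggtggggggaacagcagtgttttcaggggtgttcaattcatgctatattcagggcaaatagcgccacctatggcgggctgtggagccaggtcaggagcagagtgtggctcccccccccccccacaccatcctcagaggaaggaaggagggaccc
The starts of Cdkn1a (chromosome 17, 29090976 to 29100727, plus strand, GRCm38) lie 2790 bases apart. The window before the upstream start (chr17:29090729-29090978, plus strand) held 1 match to the p53 response element, in capitals, which ended 31 bases before the start. The element was searched as its 20-base consensus of adjoining half-sites with at most 1 mismatch, and 25 of the windows (0.0761%) held one, none of the other 9 windows of the genes studied among them. The allowance of 1 mismatch was set after the exact consensus had found no match in these genes. The window before the downstream start (chr17:29093519-29093768, plus strand) held 2 GC boxes, in capitals.
Cdkn1a, before the upstream start: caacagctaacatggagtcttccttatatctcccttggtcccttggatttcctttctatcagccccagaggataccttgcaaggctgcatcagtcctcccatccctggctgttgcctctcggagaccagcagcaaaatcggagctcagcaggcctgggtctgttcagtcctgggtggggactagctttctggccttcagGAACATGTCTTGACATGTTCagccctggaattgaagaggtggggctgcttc
Cdkn1a, before the downstream start: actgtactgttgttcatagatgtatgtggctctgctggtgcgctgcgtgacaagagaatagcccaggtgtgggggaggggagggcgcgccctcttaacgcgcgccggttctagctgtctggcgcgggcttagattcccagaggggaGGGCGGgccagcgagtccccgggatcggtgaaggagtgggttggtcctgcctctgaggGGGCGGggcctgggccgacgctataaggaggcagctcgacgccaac
All 4 sequences are from RefSeq on GRCm38.p6 and read 5′ to 3′ on the gene's strand. Windows were at hand for 7 of the 10 genes, not for Cdkn1c, Ccnd1 and Ccnd2.

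The libraries held 5463 virgin and 5075 multipara barcodes. After filtering, 4312 and 3356 cells were left, whose median depth was 17154.5 UMIs for virgin and 18317.5 for multipara, and 7 barcodes were shared, 0.128% and 0.138% of each. Cells were sorted into gates by hormone or marker UMIs that include none of the 10 genes: 1812 virgin and 1597 multipara beta-gated cells, 1030 and 632 alpha, 250 and 236 delta, 85 and 86 pancreatic polypeptide (PP), 262 and 221 endothelial, 105 and 47 mesenchymal, 79 and 115 myeloid, 128 and 41 T cell, and 169 and 43 B cell. All 6 beta and all 4 delta check markers were highest in their own gate in both libraries. For PP, Etv1 was highest in the alpha gate. Levels are UMIs per 1000000 UMIs of the gate (CPM). Hormone and mitochondrial transcripts took up 66.2% and 67.2% of beta UMIs but 5.12% and 6.29% of endothelial UMIs, so the other genes divide a smaller part of the total in beta cells, and orders of gates are also given as hormone-free CPM, per 1000000 of the remaining UMIs. Ins2 in the other gates stood at 0.75% to 2.48% of its virgin beta level and at 1.17% to 5.93% of its multipara one. The gates themselves limit hormone UMIs, and the parts of free RNA and of remaining doublets in these values were not tested.

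Each cell type had its own mix of these genes, and 8 of the 10 had the same highest gate in both libraries, against 55.9% of all genes. This count took the highest value even where its interval overlapped that of the next gate. By UMIs per cell, not scaled to the depth of the gate, 3 of the 10 had the same highest gate. Cdkn1a, the p21 gene, was highest in endothelial cells. It stood at 706 and 784 CPM in virgin and multipara endothelial cells, with intervals of 662 to 752 and 738 to 832. Myeloid cells followed, with 269.8 and 463 CPM, then mesenchymal cells with 129 and 326 CPM, whose multipara interval overlapped that of myeloid cells. In the endocrine gates p21 message was lower: 53.9 and 96.3 CPM in alpha, 38.2 and 28.6 in delta, 30.9 and 33.99 in beta and 25.2 and 15.5 in PP cells. T cells held 76.9 and 40.8 CPM and B cells 5.99 and 21.4, the latter from 6 and 4 UMIs. The endothelial gate lay over all 8 others beyond counting error in both libraries and on both scales, and the alpha gate lay over beta, delta, PP and B cells.

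**Figure D1:**
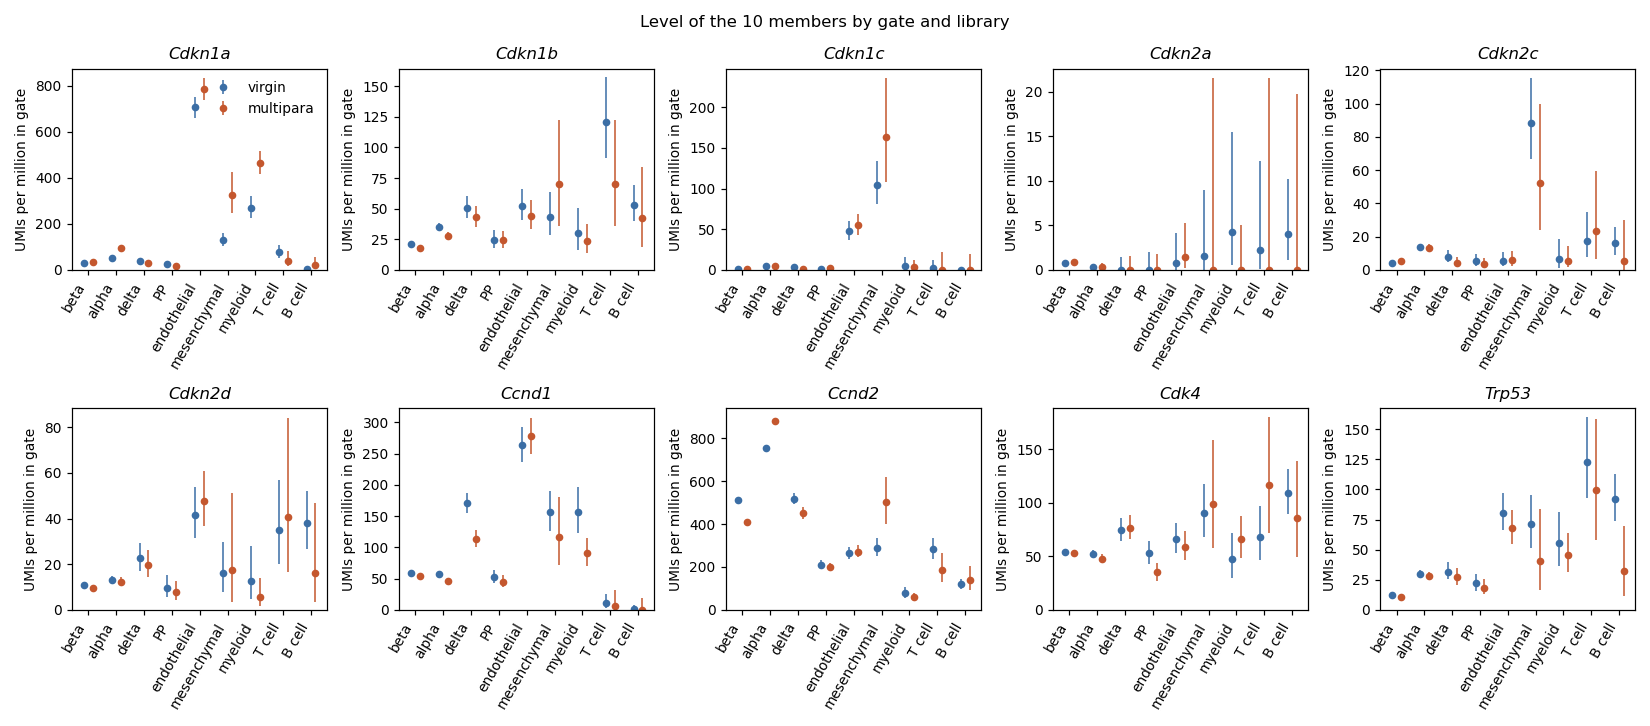
CPM (y axes, linear from 0) of each of the 10 genes in 9 gates (x axes) in the virgin (blue) and multipara (orange) libraries, with exact Poisson 95% intervals as bars. Cdkn1a and Ccnd1 peak in endothelial cells, Cdkn1c and Cdkn2c in mesenchymal cells and Ccnd2 in alpha cells in both libraries.

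Cdkn1b (chromosome 6, 134920401 to 134925513, plus strand), which codes for p27, was found in every gate. It ranged from 21.4 and 17.7 CPM in beta cells, the lowest gate in both libraries, to 121 and 70.00 in T cells, the highest. Multipara mesenchymal cells, at 69.95 CPM, were level with the multipara T cells, each on 12 UMIs. Alpha cells held 35.1 and 27.96 CPM and delta cells 50.8 and 43.3. No pair of gates was apart in both libraries and on both scales, and in hormone-free CPM beta cells held 63.4 and 54.1, close to alpha cells with 67.8 and 56.5. Cdkn1c (chromosome 7, 143458339 to 143461050, minus strand), the imprinted p57 gene, was by contrast mostly in stromal and vascular cells. Mesenchymal cells held 105 and 163 CPM and endothelial cells 47.4 and 55.2, against 4.74 and 4.77 in alpha, 4.21 and 1.68 in delta, 0.537 and 1.94 in PP and 1.37 and 0.640 in beta cells. Mesenchymal cells were over all 8 other gates and endothelial cells over the 7 below them in both libraries and on both scales. Alpha cells were over beta cells likewise, whereas alpha, delta and PP cells were not apart from each other in both libraries.

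Among the INK4 genes, Cdkn2a was barely seen in any gate. Beta cells gave 41 and 40 UMIs, or 0.789 and 0.853 CPM, and alpha cells 5 and 3 UMIs, or 0.304 and 0.275 CPM. Delta and PP cells had none in either library, which allows up to 1.15 and 1.26 CPM in delta cells by 3 counts, so beta cells could not be set above them at this depth. The remaining gates had at most 4 UMIs each. Cdkn2c (chromosome 4, 109660876 to 109667189, minus strand), coding for p18Ink4c, was highest in mesenchymal cells, at 88.7 and 52.5 CPM. Alpha cells held 13.9 and 13.5 CPM, over beta cells with 4.33 and 5.18 and delta cells with 7.65 and 4.20 in both libraries and on both scales. PP cells had 5.37 and 3.39 CPM, endothelial cells 5.18 and 5.89 and myeloid cells 6.42 and 5.51, none apart from beta cells. Cdkn2d (chromosome 9, 21288410 to 21291407, minus strand), coding for p19Ink4d, peaked in endothelial cells at 41.5 and 47.8 CPM, with T cells at 35.1 and 40.8 and virgin B cells at 37.9 within its intervals. Endocrine levels of Cdkn2d were 22.6 and 19.7 CPM in delta, 13.1 and 12.3 in alpha, 10.7 and 9.73 in beta and 9.67 and 7.75 in PP cells.

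The D cyclins had different highest gates. Ccnd1 (chromosome 7, 144929931 to 144939925, minus strand) was highest in endothelial cells, at 264 and 278 CPM, and next in virgin delta cells, at 171 CPM, with 113 in multipara delta cells. Endothelial cells were over every gate but delta in both libraries and on both scales. Beta cells held 59.1 and 54.2 CPM, alpha cells 56.6 and 46.2 and PP cells 52.1 and 45.02. Lymphocytes were almost without it, with 5 and 1 UMIs in T cells and 2 and 0 in B cells, and every endocrine gate lay over both. Ccnd2 (chromosome 6, 127125162 to 127152193, minus strand) was highest in alpha cells, at 753 and 878 CPM. Mesenchymal cells held 290.1 and 501 CPM, second in the multipara library, delta cells 518 and 449.6, beta cells 509.6 and 407 and PP cells 209 and 199. Endothelial cells had 264 and 272 CPM and myeloid cells 77.1 and 57.8, the lowest. In hormone-free CPM the order of beta and alpha cells depended on the library, with 1507 and 1242 in virgin and multipara beta cells and 1453 and 1774 in alpha cells.

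Cdk4 (chromosome 10, 127063534 to 127067920, plus strand), the partner of both cyclins, varied less with cell type. Its virgin levels ran from 47.1 CPM in myeloid to 109 in B cells, and its multipara levels from 34.9 in PP to 117 in T cells. Beta cells held 53.9 and 53.5 CPM, alpha cells 52.4 and 47.6 and delta cells 74.2 and 76.5, and no pair of gates was apart in both libraries and on both scales. In hormone-free CPM beta cells were highest in both libraries, at 159 and 163. With every cell weighted equally the highest gate was mesenchymal in both. Cdk4 overlaps Tspan31 and Ccnd1 overlaps LTO1 on the opposite strand, as do Ccnd2 with Gm43126 and 9330179D12Rik, Cdkn1a with AC167363.2 and Cdkn1c with Gm44732, and a setting for strand is not given in the sources used here. Trp53 (chromosome 11, 69580359 to 69591873, plus strand), the p53 gene, was lowest in beta cells, at 12.1 and 10.8 CPM, against 22.02 and 18.4 in PP, 30.2 and 27.96 in alpha and 31.7 and 26.9 in delta cells. T cells held 123 and 99.2 CPM and endothelial cells 80.7 and 67.7. Alpha, endothelial and T cells were over beta cells in both libraries and on both scales.

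The difference of each gate from beta cells was then counted at 1.5-fold in both libraries by CPM, beside the share of all genes that passed the same limit. Alpha cells were over beta cells for Cdkn1a, Cdkn1b, Cdkn1c, Cdkn2c and Trp53, 5 of the 10 (all genes 32.1%), and under them for Cdkn2a, 1 of the 10 (9.45%), from 5 and 3 UMIs and with intervals that overlapped. In hormone-free CPM 3 of the 5, Cdkn1c, Cdkn2c and Trp53, were still over beta cells by 1.5-fold in both libraries. On that scale the Cdkn2a intervals of alpha cells lay under those of beta cells in both libraries, without overlap. The alpha values still rest on 5 and 3 UMIs. Delta cells were over for Cdkn1b, Cdkn1c, Cdkn2d, Ccnd1 and Trp53, 5 of 10 (60.7%). The share of all genes under beta cells was 4.78% for delta cells, and Cdkn2a, at 0 UMIs in delta and PP cells, could not be placed. PP cells were over for Trp53, 1 of 10 (13.8%), and under for Ccnd2 (14.0%). These counts are by CPM, in which the hormones of beta cells take part. Endothelial cells were over for 6 (51.5%) and under for 0 (20.1%), and mesenchymal cells over for 8 (43.1%) and under for 0 (17.1%). Myeloid cells were over for 4 (27.1%) and under for Ccnd2 alone (32.5%). T cells were over for 4 (32.5%) and under for both D cyclins (30.1%). B cells were over for 4 (23.8%) and under for both D cyclins and, on 6 and 4 UMIs, for Cdkn1a (32.6%). Cdkn1c had 0 UMIs there and could not be placed. Several of the genes counted as over also rest on few UMIs. In the multipara library the Cdkn1c intervals of delta (4 UMIs) and myeloid cells (3 UMIs) overlapped that of beta cells. So did the Cdkn2d intervals of mesenchymal and B cells, on 3 UMIs each. In T cells Cdkn2c rested on 8 and 4 UMIs, with intervals above those of beta cells.

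Between virgin and multipara beta cells the set differed little, with Ccnd2 lower, Cdkn1b lower and Cdkn1a slightly higher. At 1.5-fold, 1 of the 10 genes passed, Cdkn1c on the lower side, where 11.1% of 13099 genes passed in either direction. Ccnd2 stood at 509.6 CPM in virgin and at 407 in multipara beta cells, a log2 ratio of -0.32 (95% interval -0.35 to -0.30), when the median of all genes was -0.10. All alternatives run gave -0.37 to -0.23. After every cell was thinned to 5000 UMIs, Ccnd2 was seen in 87.3% (85.6 to 88.9) of 1649 virgin and 80.6% (78.4 to 82.7) of 1392 multipara beta cells (163 and 205 shallower cells left out), and 2 or more UMIs in 65.6% and 55.4%. In myeloid cells, the gate with least Ccnd2, the thinned shares were 16.98% (8.07 to 29.8) and 16.5% (9.31 to 26.1). Both the share of cells and the level per cell were lower in the multipara library.

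The other accelerator genes of beta cells differed less. Ccnd1 stood at 59.1 and 54.2 CPM, a log2 ratio of -0.13 (-0.20 to -0.05), next to the median of all genes. Cdk4 stood at 53.9 and 53.5 CPM, with a ratio of -0.01 (-0.09 to 0.07), an interval that includes 0. Of the brakes, Cdkn1b was at 21.4 and 17.7 CPM, with a ratio of -0.27 (-0.40 to -0.14), and its alternatives gave -0.36 to -0.05. Genes with a lower ratio still made up 21.6% of all genes for Cdkn1b and 17.5% for Ccnd2. Cdkn1a was at 30.9 and 33.99 CPM, with a ratio of 0.14 (0.04 to 0.24), higher than in 84.4% of all genes. Its thinned shares, 12.1% (10.5 to 13.7) and 12.7% (11.01 to 14.6) of cells, overlapped. Cells of the multipara library with 5 or more Cdkn1a UMIs numbered 7 of 1392, against 2 of 1649 in the virgin one.

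Cdkn2a did not differ detectably in beta cells at this depth. Its 41 and 40 UMIs gave a log2 ratio of 0.11 (-0.55 to 0.78), and the alternatives gave -0.24 to 0.57. Thinned cells with a UMI numbered 2 of 1649 virgin and 8 of 1392 multipara beta cells, that is 0.121% (0.0147 to 0.437) and 0.575% (0.248 to 1.13). Unthinned shares were 2.15% and 2.25%. Alpha cells had thinned shares of 0.317% (0.0655 to 0.925) and 0.334% (0.0405 to 1.20). These intervals overlapped those of beta cells, so the thinned shares could not separate the 2 gates. In hormone-free CPM the alpha intervals lay under the beta ones in both libraries, on 5 and 3 alpha UMIs. Cdkn2c was at 4.33 and 5.18 CPM with a ratio of 0.26 (-0.01 to 0.53), and Cdkn2d at 10.7 and 9.73 CPM with -0.14 (-0.32 to 0.05). Trp53 was at 12.1 and 10.8 CPM with -0.16 (-0.33 to 0.01), so the intervals of all 3 included 0.

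Cdkn1c rested on 71 and 30 UMIs, 1.37 and 0.640 CPM, for a ratio of -1.09 (-1.76 to -0.46). It lay at the low end of the genes with 100 to 1000 UMIs, of which 8.37% passed 1.5-fold. Of genes with 20 to 100 UMIs, 43.1% did. Thinned cells with a UMI of Cdkn1c numbered 12 and 2. Its direction turned when every cell was weighted equally, at 1.49 and 1.57 CPM. Transcripts of other cell types also differed in the beta gate: Sst stood at 1084 and 575 CPM, Ppy at 891 and 412, the summed 8 endothelial markers at 7.97 and 6.87, the 8 myeloid markers at 47.5 and 74.8, and the 8 mesenchymal markers at 1.67 and 2.39. Their part in the member ratios was not tested. Of these markers 1 mesenchymal gene was at 0 in each library and the rest were above it.

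**Figure D2:**
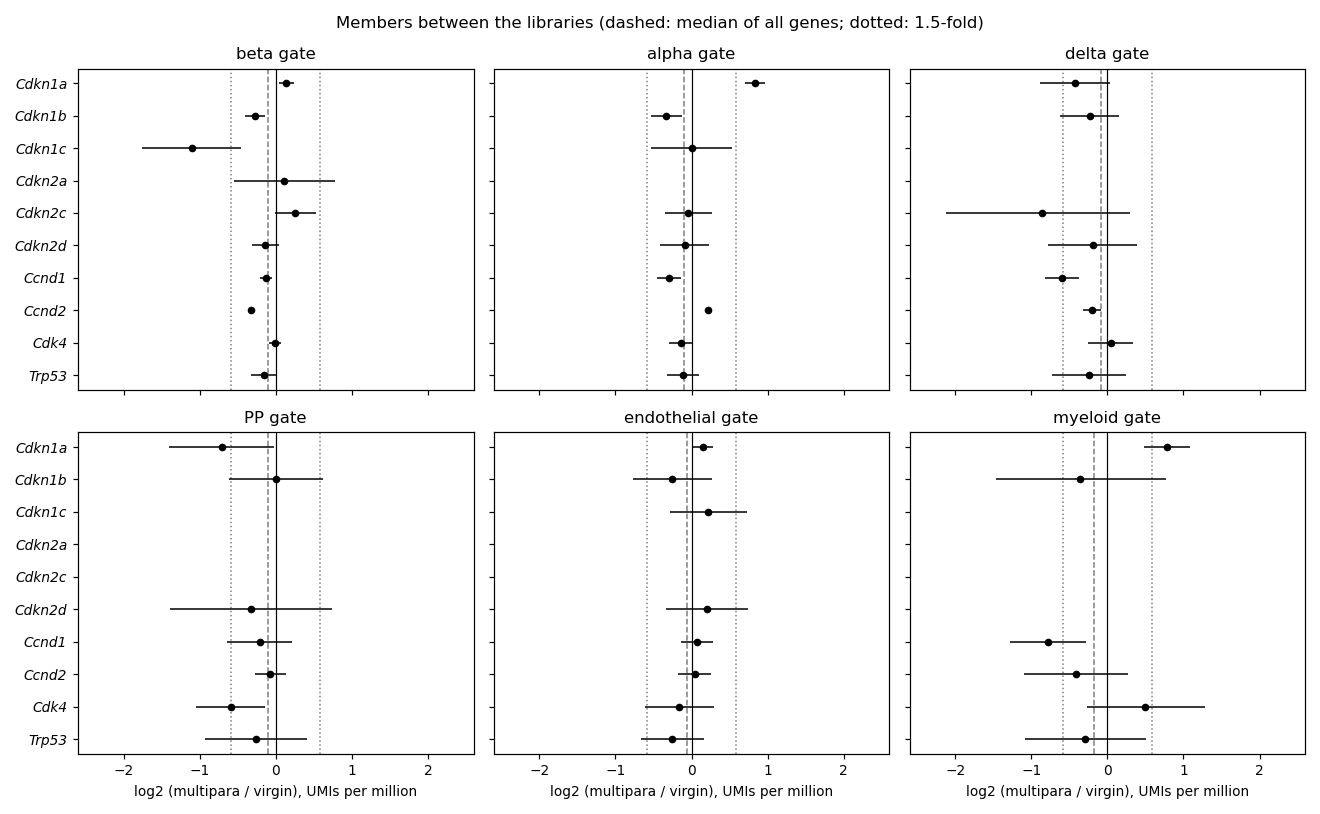
Log2 ratio of multipara over virgin CPM (x axes) for each gene (y axes) in 6 gates, with exact 95% counting intervals as bars, and only for genes with 20 or more UMIs. Cdkn1a lies to the right of the 1.5-fold line in the alpha and myeloid gates, and Ccnd2 lies left of 0 in beta and right of 0 in alpha cells.

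Alpha cells differed in the opposite way for 1 cyclin and most for 1 inhibitor. Virgin alpha cells held 53.9 CPM of Cdkn1a (50.4 to 57.5) and multipara alpha cells 96.3 (90.5 to 102), from 886 and 1050 UMIs. The log2 ratio was 0.84 (0.71 to 0.97), above that of 98.6% of genes, and it was the 1 of 9 genes tested that passed 1.5-fold, against 9.24% of 12014 genes. All alternatives run gave 0.69 to 0.93. After thinning, Cdkn1a was seen in 16.4% (14.1 to 18.9) of 945 virgin and 22.1% (18.8 to 25.6) of 598 multipara alpha cells (85 and 34 left out; unthinned 26.9% and 36.1%), and 2 or more UMIs in 5.40% and 11.4%. B cells, which held least in the virgin library, showed it in 1 of 46 thinned virgin cells. Markers of the gates richest in Cdkn1a were also measured in alpha cells: the 8 endothelial markers summed to 14.1 and 8.99 CPM, the 8 myeloid markers to 58.01 and 64.7 and the 8 mesenchymal markers, of which 1 and 5 were at 0, to 9.36 and 9.08. The 30 genes of the dissociation response, induced by enzymatic digestion, summed to 13136 and 13286 CPM, with a median log2 ratio of -0.02.

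Ccnd2 in alpha cells stood at 753 and 878 CPM, a ratio of 0.22 (0.18 to 0.26), and at 1453 and 1774 in hormone-free CPM. The direction was opposite to that in beta cells under every alternative run, and the difference between the gates was not tested. Its thinned shares in alpha cells were 94.4% (92.7 to 95.8) and 96.5% (94.7 to 97.8). Cdkn1b was lower in alpha as in beta cells, at 35.1 and 27.96 CPM and -0.33 (-0.53 to -0.13), and Ccnd1 was at 56.6 and 46.2 CPM and -0.29 (-0.45 to -0.13). For Cdkn1c (0.01, -0.53 to 0.53), Cdkn2c (-0.04, -0.35 to 0.26), Cdkn2d (-0.09, -0.41 to 0.23), Cdk4 (-0.14, -0.30 to 0.02) and Trp53 (-0.11, -0.32 to 0.10) the interval included 0. Cdkn2a had 5 and 3 UMIs there, too few for a ratio.

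**Figure D3:**
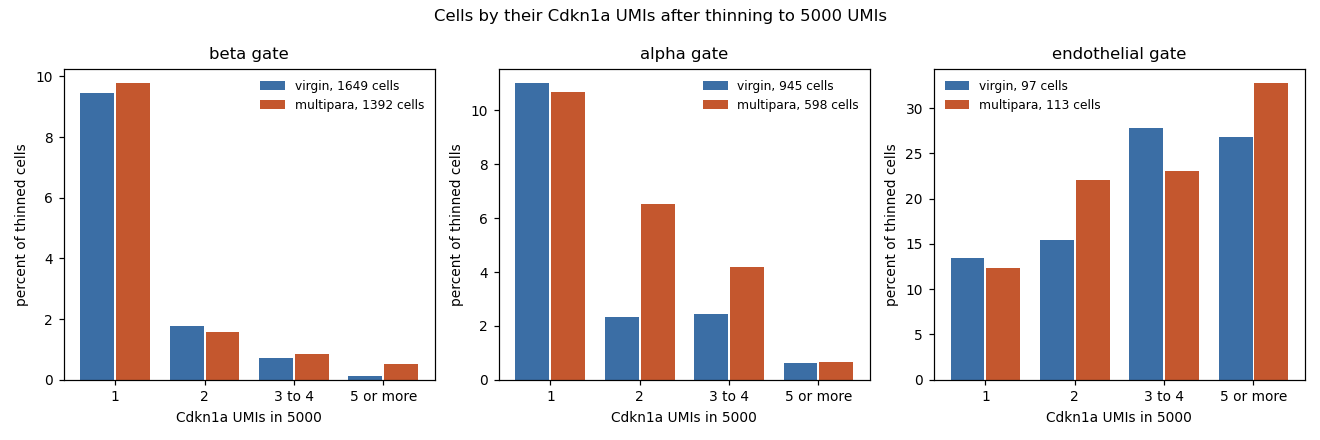
Percent of thinned cells (y axes, from 0) with 1, 2, 3 to 4 or 5 and more Cdkn1a UMIs among 5000 (x axes) in beta, alpha and endothelial gates, virgin blue and multipara orange; cells with 0 are not drawn. In alpha cells the bars at 2 UMIs stand at 2.33% and 6.52%.

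Cdkn1a was unevenly spread over cells. In thinned alpha cells its variance was 2.82 and 2.23 times its mean, and in beta cells 1.57 and 2.46 times, against 0.979 and 0.985 for Cdk4 in alpha cells, where Poisson sampling gives 1. Ccnd2 was also above 1, at 1.90 and 1.66 in alpha cells. Alpha cells with 2 or more Cdkn1a UMIs, 51 virgin and 68 multipara, were compared with the 790 and 466 that had none. Ccng1, the cyclin G1 gene induced by p53, was at 52.9 (34.9 to 77.03) UMIs per 100 virgin cells in the former and 11.4 (9.16 to 14.00) in the latter, and at 42.6 (28.6 to 61.2) and 11.4 (8.52 to 14.9) in multipara cells. Mdm2, which codes for the ligase that degrades p53, was at 25.5 (13.6 to 43.6) and 14.8 (12.2 to 17.7) in virgin cells and at 25 (14.6 to 40.03) and 12.9 (9.83 to 16.6) in multipara cells, intervals that overlap. The whole p53 list summed to 12.02 against 7.37 UMIs per virgin cell and 11.9 against 7.94 per multipara cell. Btg2 of that list was at 625 against 428 UMIs per 100 virgin cells and 631 against 468 per 100 multipara cells. The G1/S list summed to 1.61 against 1.54 and 1.49 against 1.49 per cell, and the dissociation list to 69.2 against 67.2 and 74.9 against 67.4. The S/G2/M list, of genes of dividing cells, summed to 0.255 against 0.251 per virgin and 1.65 against 0.388 per multipara cell. The senescence list summed to 5.98 against 5.51 and 4.68 against 4.63. The Cdkn1a-rich alpha cells carried more Ccng1 at the same thinned depth in both libraries. In beta cells the same cut left 43 and 41 cells, with Ccng1 at 18.6 (8.03 to 36.7) against 9.38 (7.87 to 11.1) in virgin and 26.8 (13.4 to 48.00) against 9.79 (8.11 to 11.7) in multipara cells. In these beta cells the dissociation list summed to 46.3 against 42.2 UMIs per virgin cell and 59.3 against 44.5 per multipara cell. The S/G2/M list summed to 0.209 against 0.193 and 0.317 against 0.126. The part of either list in the Ccng1 values was not tested. Cells are not replicates, and these are descriptions of 2 libraries.

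In delta cells 2 of 8 genes tested passed 1.5-fold, both lower, against 11.2% of 10306 genes, and 1 did under either other scaling. Ccnd1 was at 171 and 113 CPM from 447 and 269 UMIs, a ratio of -0.60 (-0.82 to -0.37), and was seen in 52.1% (45.5 to 58.7) of thinned virgin and 40.1% (33.5 to 46.9) of thinned multipara cells. No thinned virgin B cell of 46 held a Ccnd1 UMI, which allows a share of up to 6.52% by 3 counts. Cdkn2c was at 7.65 and 4.20 CPM from 20 and 10 UMIs, with -0.86 (-2.12 to 0.30). Ccnd2 was at 518 and 449.6 CPM and -0.21 (-0.32 to -0.09), on the side of beta cells. Cdkn1a (-0.42, -0.89 to 0.04), Cdkn1b (-0.23, -0.62 to 0.15), Cdkn2d (-0.19, -0.78 to 0.39), Cdk4 (0.04, -0.26 to 0.34) and Trp53 (-0.24, -0.73 to 0.25) had intervals that include 0, and Cdkn1c had 11 and 4 UMIs. The dissociation list was higher in multipara delta cells, 21037 and 26824 CPM in sum, and its part in these ratios was not tested. In PP cells 2 of 7 passed, against 16.8% of 8009 genes, and 0 with median-of-ratios scaling: Cdkn1a, at 25.2 and 15.5 CPM from 47 and 32 UMIs (-0.70, -1.40 to -0.03), and Cdk4, at 52.6 and 34.9 CPM from 98 and 72 UMIs (-0.59, -1.05 to -0.14). Their thinned shares overlapped, 10.3% (4.53 to 19.2) and 10.5% (4.90 to 18.9) for Cdkn1a, and Ccnd2 was at 209 and 199 CPM (-0.07, -0.27 to 0.13).

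In endothelial cells, where Cdkn1a and Ccnd1 were highest, 0 of 8 genes passed 1.5-fold, against 13.2% of 8674 genes. Cdkn1a was seen in 83.5% (74.6 to 90.3) of 97 thinned virgin and 90.3% (83.2 to 95.04) of 113 thinned multipara cells (165 and 108 left out), with a ratio of 0.15 (0.02 to 0.28). Ccnd1 (0.07, -0.14 to 0.29), Ccnd2 (0.04, -0.17 to 0.25), Cdkn1b (-0.25, -0.77 to 0.26), Cdkn1c (0.22, -0.28 to 0.72), Cdkn2d (0.21, -0.33 to 0.75), Cdk4 (-0.16, -0.62 to 0.29) and Trp53 (-0.25, -0.67 to 0.16) all had intervals that include 0. The neighbour of Cdkn2a, Cdkn2b, whose product p15Ink4b inhibits Cdk4 and Cdk6, was at 29.6 and 72.1 CPM there (1.28, 0.74 to 1.85). Endothelial Cdkn2b thus was past 1.5-fold where no member was, on 40 and 98 UMIs. In myeloid cells 2 of 6 passed, against 28.4% of 4774 genes: Cdkn1a was higher, at 269.8 and 463 CPM (0.78, 0.48 to 1.09), and Ccnd1 lower, at 156 and 90.9 CPM (-0.78, -1.28 to -0.28). The thinned shares of myeloid cells with Cdkn1a, 52.8% (38.6 to 66.7) and 64.7% (53.6 to 74.8), overlapped, and 2 or more UMIs were in 28.3% and 48.2% of 53 and 85 cells.

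In the mesenchymal gate 6 of 8 passed, against 46.0% of 5470 genes, and the make-up of the gate differed between the 2 libraries. Cells with more UMIs of Dcn, a fibroblast proteoglycan gene, numbered 59 virgin and 6 multipara, and cells with more Rgs5, a pericyte gene, 46 and 41. Within the Rgs5-rich cells Cdkn1a was at 110.1 (66.3 to 172) and 378 CPM (285 to 491), apart as in the whole gate. Ccnd2, at 290.1 and 501 CPM over the gate, was at 545 and 560.0 within them, and Cdkn1c at 151 and 155. The split was chosen after the values had been seen. In T cells 4 of 6 passed, against 32.4% of 3615 genes, and in B cells 2 of 5, against 47.1% of 4882 genes, on 41 and 43 multipara cells. The only intervals among these that left out 0 were those of Ccnd2 in T cells, -0.60 (-1.21 to -0.03), and Trp53 in B cells, -1.52 (-3.00 to -0.34), and the latter was 0.016 after thinning.

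Cdkn2c and Cdkn2d were higher in cells with several genes of division in virgin beta cells and in both alpha groups. The S/G2/M list of 25 genes, none of them among the 10, marks cells that copy DNA or divide, and cells with UMIs of 5 or more of its genes were set apart, a limit chosen after the data were seen. There were 5 of 1812 virgin and 3 of 1597 multipara beta cells, and 3 of 1030 and 7 of 632 alpha cells. In the virgin beta cells Cdkn2c was at 118 (72.4 to 183) CPM in those cells and at 3.96 (3.44 to 4.54) in the rest. In virgin alpha cells it was at 109.9 (47.4 to 217) and 13.4 (11.7 to 15.3), and in multipara alpha cells at 142 (92.2 to 210.3) and 11.4 (9.44 to 13.6). Cdkn2c was higher in the dividing cells in each of these, with intervals that did not overlap. Cdkn2d followed it, at 77.01 (41.00 to 132) and 10.5 (9.61 to 11.4) in virgin beta, 179 (95.1 to 305) and 12.3 (10.7 to 14.2) in virgin alpha and 108 (65.2 to 169) and 10.7 (8.85 to 12.9) in multipara alpha cells. Neither had a UMI in the 3 multipara beta cells, which held 56 UMIs of the list in all, against 508 in the 5 virgin ones. Of the list gene Mki67 these 3 cells held 1 UMI and the 5 virgin ones 26. Whether the 3 multipara beta cells were dividing was not tested.

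**Figure D4:**
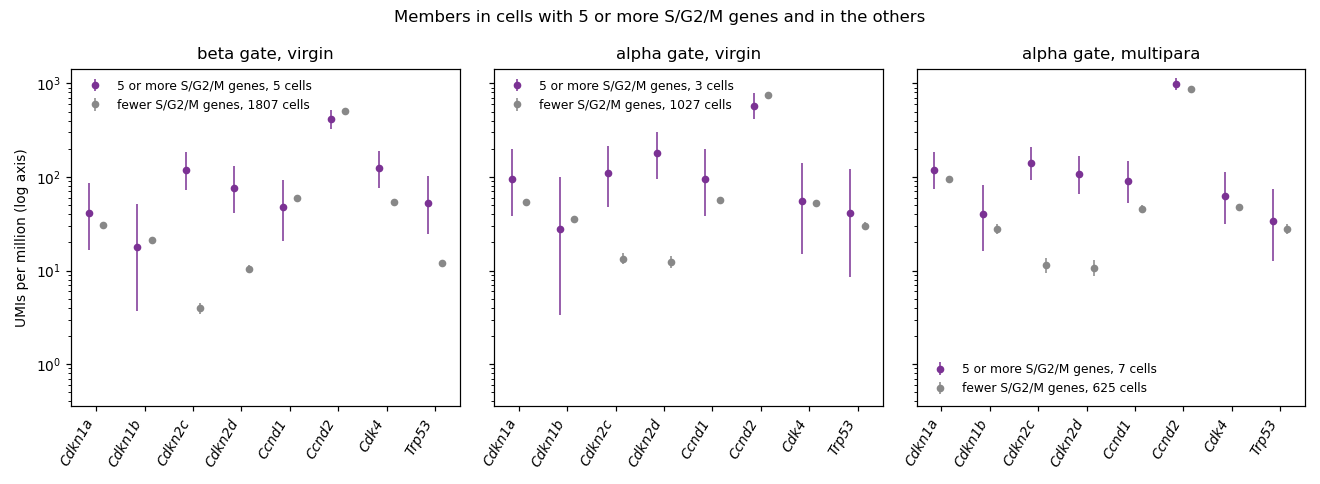
CPM (y axis, logarithmic) of 8 of the genes (x axes) in cells with UMIs of 5 or more S/G2/M genes (purple) and in the other cells of the gate (grey), with exact Poisson 95% intervals as bars. Cdkn2c and Cdkn2d are the pair that is higher in the purple cells in all 3 panels beyond the intervals.

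The remaining genes were mostly closer. Ccnd2 was at 415 (323 to 524) CPM in those virgin beta cells and 509.9 (504 to 516) in the rest, and Cdkn1b at 17.8 (3.66 to 51.9) and 21.4 (20.2 to 22.7). Cdk4 was higher in the virgin beta cells, at 124 (77.00 to 190.2) and 53.6 (51.7 to 55.7), but its intervals overlapped in both alpha groups. Trp53 was also higher there, at 53.3 (24.4 to 101) and 11.9 (10.99 to 12.9), and Ccnd1 was higher in the dividing multipara alpha cells, at 91.2 (52.1 to 148) and 45.5 (41.5 to 49.7). Cells with 5 or more of these genes were also deeper, with medians of 40277 and 29979 UMIs in virgin beta cells. Leaving them out took 20 Cdkn2c UMIs from the virgin beta cells and 0 from the multipara ones, which by itself raises the ratio. The log2 ratio of Cdkn2c in beta cells was then 0.39 (0.12 to 0.67), so no separate result is read from it. In alpha cells, where 8 virgin and 25 multipara UMIs were taken out, it was -0.24 (-0.57 to 0.08).

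The lists of genes around the 10 had medians from -1.02 to 0.16 in beta cells, lowest for the genes of dividing cells. The G1/S list had a median log2 ratio of -0.13 over 28 of 30 genes, 6 of them above 0, beside -0.10 over all genes, and 0 were past 1.5-fold higher and 1 lower (all genes 3.21% and 7.92%). That gene was Myc, a growth transcription factor, at 2.23 and 1.32 CPM (-0.76, -1.22 to -0.30). E2f5, a repressor of E2F targets, was at -0.48 (-0.73 to -0.24) and Rb1, the retinoblastoma gene, at -0.34 (-0.56 to -0.12). Cks1b, a kinase subunit that helps to degrade p27, was higher, at 17.04 and 22.1 CPM (0.37, 0.24 to 0.50), as was Cdkn2b at 9.20 and 10.9 CPM (0.25, 0.06 to 0.43). The partners Ccnd3 (-0.10, -0.24 to 0.05), Ccne1 (-0.55, -1.14 to 0.03), E2f3 (0.48, -0.36 to 1.34), Cdk2 (-0.56, -1.79 to 0.60) and Cdk6 (-0.66, -2.88 to 1.32) had intervals that include 0, the last from 7 and 4 UMIs.

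Of the p53 list, 26 of 30 genes were tested in beta cells, with a median of 0.00. Past 1.5-fold, 2 were higher and 0 lower (all genes 3.21% and 7.92%). Trp53inp1, a p53-induced nuclear protein gene, was at 32.2 and 50.5 CPM (0.65, 0.56 to 0.74) and the cytokine gene Gdf15 at 0.924 and 1.64 (0.83, 0.29 to 1.38). Sat1, of polyamine breakdown, was at 0.58 (0.44 to 0.72) and the nuclease gene Aen at 0.40 (0.22 to 0.58). Plk2, a kinase gene, was at -0.36 (-0.64 to -0.08). Mdm2 was at -0.13 (-0.26 to -0.01) and Ccng1 at 0.10 (-0.03 to 0.23), where the median of all genes was -0.10. In alpha cells Ccng1 was at 27.1 and 35.5 CPM (0.39, 0.19 to 0.59), Aen at 14.3 and 23.2 (0.70, 0.44 to 0.96), Trp53inp1 at 0.40 (0.27 to 0.53) and Mdm2 at 0.09 (-0.11 to 0.29), with a list median of 0.10 over 28 genes and 16 above 0.

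**Figure D5:**
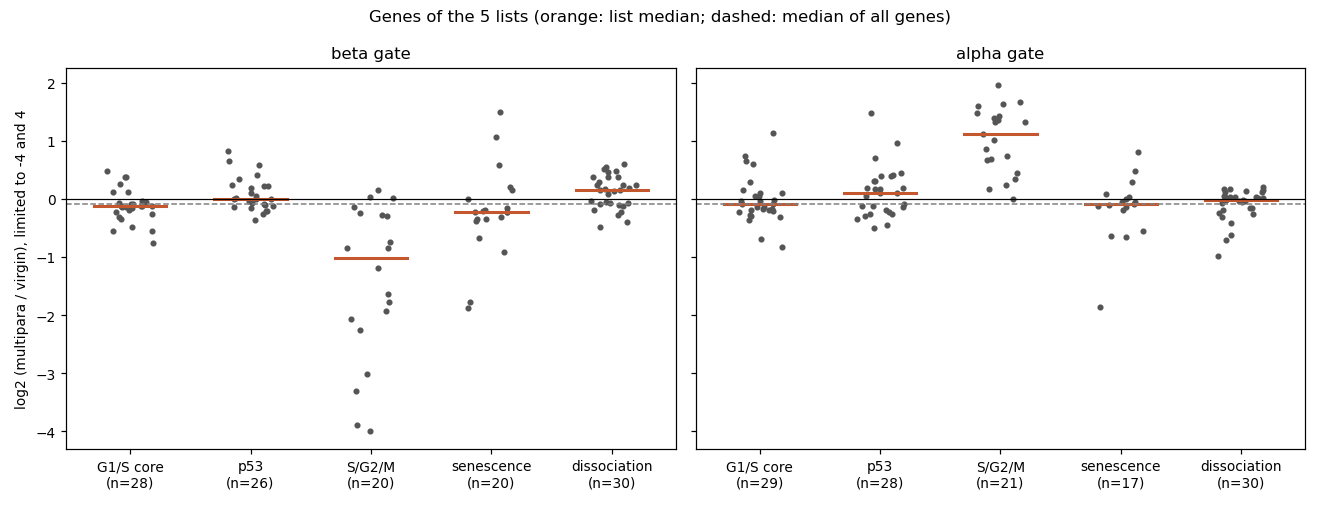
Log2 ratio of multipara over virgin (y axis; values beyond 4 are drawn at 4) of each tested gene of 5 lists (x axes, with the number tested) in beta and alpha gates, with the list median in orange and the median of all genes dashed. The S/G2/M list lies low in beta (-1.02) and high in alpha cells (1.11), both as CPM ratios.

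The S/G2/M list had medians of -1.02 over 20 of 25 genes in beta and 1.11 over 21 of 25 genes in alpha cells, and part of its UMIs was in a few cells: 24.98% of its virgin beta UMIs were in 5 cells and 57.5% of its multipara alpha UMIs in 7. Without those cells the medians were -0.20 and 0.08. Mki67, which codes for the proliferation antigen Ki-67, had 33 UMIs in 9 virgin and 3 in 3 multipara beta cells. The tubulin-binding gene Stmn1 was at -1.18 (-1.57 to -0.81) in beta cells, the replication helicase genes Mcm4 and Mcm7 at -0.85 (-1.33 to -0.38) and -0.30 (-0.63 to 0.04), and the mitotic genes Ube2c and Aurka at -5.02 (-8.09 to -3.12) and -0.74 (-1.48 to -0.02). Of the senescence list, 20 of 30 genes were tested in beta cells, with a median of -0.22. Past 1.5-fold, 2 were higher and 4 lower (all genes 3.21% and 7.92%). Igfbp7, a secreted binding protein gene, was at 123 and 77.3 CPM (-0.67, -0.73 to -0.62), the protease inhibitor gene Timp2 at 7.53 and 3.97 (-0.92, -1.18 to -0.67) and the chemokine gene Cxcl1 at 0.866 and 0.235 (-1.88, -2.98 to -0.91). Il1b, a macrophage cytokine gene, went the other way, at 0.943 and 1.96 CPM (1.06, 0.54 to 1.59), beside myeloid cells that held 2111 and 2907 CPM and myeloid markers that were higher in the multipara beta gate, and the part of free RNA in it was not tested. Igfbp5 was at 0.58 (0.32 to 0.83). The dissociation list had a median of 0.16 over 30 of 30 genes in beta cells, 18 above 0. Its immediate early and heat shock genes included Zfp36 at 0.60 (0.53 to 0.66), Hspa1a at 0.54 (0.51 to 0.58) and Atf3 at 0.51 (0.47 to 0.55). Dnajb1 was at 0.48 (0.44 to 0.52) and Klf2 at -0.48 (-0.58 to -0.38). The authors report Hspa1a, Atf3 and Dnajb1 among stress-related genes that were higher in multipara beta cells. The part of tissue digestion in these ratios was not tested.

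Pairs of the genes that were seen often enough, 28 or 36 a gate, were correlated over thinned cells of 3 gates. In beta cells they had correlations from -0.04 to 0.07 in the virgin and -0.05 to 0.13 in the multipara library, and in alpha cells from -0.06 to 0.08 and -0.07 to 0.04. In endothelial cells, 97 virgin and 113 multipara, they ran from -0.28 to 0.35 and -0.21 to 0.30. The counts are sparse and the cells of a gate share a library, so no relation is read from these values. Across the 18 profiles of 9 gates in 2 libraries, the genes whose log2(CPM + 5) was most like Cdkn1a, by Pearson's r among 11702 genes, were Smox (0.96), Ubtd1 (0.91), Anxa3 (0.91). For Cdkn1c they were Kank2 (0.99), Gm13889 (0.98), Gjc1 (0.98), for Cdkn2c Spon1 (0.92), Hsd11b1 (0.91), Cpxm1 (0.88) and for Cdkn1b Nsd3 (0.96), Tcf12 (0.94), Usp3 (0.94). Ccnd1 was most like Wdfy3 (0.95), Anxa5 (0.95), Mapk3 (0.95), and Ccnd2 most like Pde10a (0.91), Ppp1r37 (0.89), Copg1 (0.89). The profiles share libraries and, among endocrine gates, the hormone share of UMIs, so these values describe likeness of pattern. For Cdk4 the nearest were Dkc1 (0.89), Hddc2 (0.88), Cnot11 (0.88), for Trp53 Ube2d3 (0.96), Tubb5 (0.95), Ubac2 (0.95), for Cdkn2d Ppp4r3b (0.95), Zfp830 (0.92), Prpf38a (0.92) and for the sparse Cdkn2a 3110001I22Rik (0.81), Zfp984 (0.79), Oas1c (0.77).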

How the data were processed

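Single-cell 3′ RNA counts of dispersed mouse islets were taken as deposited, 1 virgin and 1 multipara library. The authors deposited raw counts of UMIs per gene and barcode, which the submitters' processing notes link to Cell Ranger 3.1.0, Seurat 3.0 and GRCm38 (mm10). No column of another sample was met (0 columns). Cells with over 200 and under 6000 genes, under 60000 UMIs and under 10% mitochondrial UMIs were kept, and doublets called by Scrublet within each library (79 and 18 cells) were removed. Hormone gates required a hormone at 5% of UMIs, with no other hormone at that level, and marker gates required 3 markers and 0.1% of UMIs. Cells in gates of under 30 cells in a library (ductal, acinar) were left out. UMIs were summed per gate and library. Log2 ratios were computed for summed CPM, genes with 20 UMIs over both libraries were set against 1.5-fold, and exact Poisson, conditional binomial and Clopper-Pearson 95% intervals were given. For shares, each cell was thinned to 5000 UMIs with 1 seed. A gate was called apart from another where Poisson intervals did not overlap. Named genes were the 10 genes, the 5 genes of each list with the largest ratio in beta cells among those with 50 UMIs or more, the direct partners Cdkn2b, Ccnd3, Cdk6, Cdk2, Rb1, Mdm2, Ccng1 and Mki67, and the 3 most alike genes by profile. Other list genes and gates were named for comparison after their values were seen. Members, lists and tests were chosen with earlier results of these data known. Alternatives were TMM and median-of-ratios scaling (edgeR 4.0.16), UMIs without hormones, equal weighting of cells, thinning, other filters and gates. Leaving out cells with 5 or more S/G2/M genes, the mesenchymal split and the p53 mismatch allowance were added after seeing the data. Part of the marker check of the alpha gate is not reported here. Ratios were checked on simulated counts. Analyses used Python 3.11.15, scanpy 1.11.5, scipy 1.17.1 and R 4.3.3. Total depth was 94853806 and 82503776 UMIs.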

Additional observations from a re-analysis of the deposited data

Results flagged for a closer look

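The log2 ratio of multipara over virgin differed in sign between gates for 2 of the genes, each with a counting interval that left out 0, and the difference between gates was not tested. For Cdkn1a it was 0.84 in alpha, 0.14 in beta, 0.15 in endothelial, 1.34 in mesenchymal and 0.78 in myeloid cells, against -0.70 in PP cells. For Ccnd2 it was 0.22 in alpha and 0.79 in mesenchymal cells, against -0.32 in beta, -0.21 in delta and -0.60 in T cells. Within the Rgs5-rich mesenchymal cells, 46 and 41, Ccnd2 stood at 545 and 560.0 CPM with overlapping intervals. With 1 library a condition, no sample within a gate could be set against another.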

How the results depend on the processing

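The 67 member ratios were recomputed in 798 alternatives: 755 lay within the counting interval of the reported value, 41 lay outside it, and 2 reversed a value whose interval left out 0. Counting these 2, thinning gave 19 outside and equal weighting of cells 10. The sign differed in 43. The 2 reversals were Cdkn1c in beta cells, 0.070 when each cell was weighted equally, and Trp53 in B cells, 0.016 after thinning. The cause was not tested. Of the members past 1.5-fold, 1 passed in delta cells with TMM, median of ratios, UMIs without hormones and mitochondrial genes, equal weighting, thinning, a 10% hormone gate or at least 50 UMIs. In PP cells 1 passed with TMM, UMIs without hormones or the 10% gate, 0 with median of ratios, equal weighting or no cell filter, and 4 at 5 UMIs or more. In beta cells 0 passed with equal weighting or thinning, and in endothelial cells 2 after thinning. The G1/S median in beta cells was -0.036 with TMM, -0.032 with median of ratios, 0.10 with equal weighting and -0.054 after thinning. The S/G2/M median was 0.032 in beta cells with equal weighting, and -0.20 in beta and 0.081 in alpha cells without cells with 5 or more of its genes, an alternative added after seeing the data. The dissociation median was 0.25 in beta cells with both TMM and median of ratios, and in alpha cells 0.076 with both and 0.051 with UMIs without hormones. Members with the same highest gate numbered 3 by UMIs per cell. Virgin cells in a gate were 83.1% with no cell filter, 90.0% with doublets kept, 94.3% with a 10% and 86.6% with a 2.5% hormone gate, and multipara cells 93.7% and 85.8% with these gates. Depth limits Cdkn2a everywhere and every gate of under 50 cells. No paired analysis was possible because each condition had 1 library.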
